A study of Xenopus tropicalis with 52 samples.

Results

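The 200 genes whose total RNA rose most from the mid-blastula transition (stage 8+) to the early gastrula (stage 10+) of the frog Xenopus tropicalis were followed through loss-of-function (LOF) experiments on signaling and on T-box transcription factors. They were chosen from 2 rRNA-depleted libraries of total RNA, 1 for each stage, each from 30 embryos injected with 75 ng of the label 4-thiouridine (4sU). Counts were scaled to CPM (each count over its library's total, on a common scale) over gene rows, genes with under 50 counts at stage 10+ were left out, and the rest were ranked by the ratio of CPM + 1 at stage 10+ to CPM + 1 at stage 8+. Of 19554 gene rows, 8882 had 50 counts or more at stage 10+, and the first 200 of these are the strongest gainers described here. The files or RefSeq names give a symbol for 157 of them. Exon counts were found for 197 of the 200 in the poly(A) libraries and intron counts for 186; the other 3 have numeric identifiers that no exon file lists.

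All embryos were wild type, out-bred Nigerian, and every library held RNA of whole embryos that were pooled. At stage 9+ (late blastula), 8 groups of 3 poly(A) libraries compared Wnt LOF (5 ng of a morpholino, MO, against β-catenin), Nodal LOF (100 µM SB431542), BMP LOF (10 µM LDN193189), the 3 double LOFs and the triple LOF with DMSO-treated embryos. This control was not injected, so that β-catenin MO and injection as such cannot be told apart there. In the T-box experiment, 4x zT LOF embryos received 2.5 ng of each of 4 Xbra MOs along with 5 ng each of MOs against zVegT and Eomes, and control embryos 20 ng control MO, with 4 libraries of each at stages 10+, 11+ and 12+ (early, mid and late gastrula). A morpholino blocks translation or splicing of its target, so the exon level of the target's own mRNA is no measure of the knockdown. In whole embryos, fewer cells that express a gene and less of its RNA per cell cannot be told apart.

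Zygotic genome activation hands control of development from maternal to embryonic transcripts. In the frog blastula, maternal β-catenin marks the dorsal side and later the Spemann organizer, Nodal ligands induce mesoderm and endoderm, and BMP acts on the ventral side. T-box factors (zygotic VegT, Eomes and Brachyury, encoded by tbxt) act below Nodal in the mesoderm and endoderm.

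The ratio that chose the genes ranged from 3.88 to 43.8, with a median of 6.55. It was 10 or more for 45 genes and 20 or more for 9. At the head of the list, cer1 (Cerberus, a secreted antagonist of Nodal, BMP and Wnt) went from 7 to 528 counts, slc12a3.2 (a sodium chloride cotransporter) from 22 to 985, and ror2 (a receptor for Wnt5 ligands) from 3 to 292. Next came pcdh8.2 (paraxial protocadherin, which acts in gastrulation movements) with 167 and 3392 counts, gatm (an enzyme of creatine synthesis) with 102 and 2099, and frzb (a secreted Wnt antagonist) with 38 and 851. The other named genes of the first 12 with a symbol were s1pr5 (a sphingosine-1-phosphate receptor), arhgap39, krt (a keratin), darmin, zeb2 (a transcriptional repressor) and fgd1 (an exchange factor for Cdc42). Low counts at stage 8+ limit these ratios: 47 genes had under 10 counts there and 3 had none. The last genes inside were c7orf11 (3.90), celsr1 (3.90) and epas1 (3.88), and the first outside were gas2l1 (3.88), il6st (3.87) and Xetro.B01656 (3.84).

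The same embryos also gave 1 library of 4sU-labeled RNA for each stage, and the label marks transcripts made in the embryo. Enrichment is the 4sU level over the total RNA level after DESeq2 size factors, for genes with 10 counts or more in total RNA. Its denominators are the values that chose the genes, a low one at stage 8+ and a high one at stage 10+, so enrichment is in part set by the choice and is given as a description. It was above 1 for 147 of 153 strongest gainers at stage 8+ (96.1%) and for 198 of 200 at stage 10+ (99%), against 38.8% of all genes with 50 counts or more at stage 10+, at either stage. Their median enrichment was 12.5 at stage 8+ and 7.99 at stage 10+, against 0.8002 and 0.7098 over all those genes. The 4sU level in CPM was higher at stage 10+ than at stage 8+ for 192 of 200, and the share over all genes was not counted. Its median went from 34.3 to 155.7 CPM, beside 40.5 and 26.0 CPM over all those genes. The labeled RNA came from the same embryos as the libraries that chose the genes, so this rise is no separate check of the choice. The genes without enrichment above 1 at stage 10+ were Xetro.I00966, with 0 labeled counts, and Xetro.E00238, at 0.997. With 888940 to 7884062 read pairs on genes in these 4 libraries and no replicate, these values have no error and no test. At stages 8+ and 10+, 95.5% and 91.3% of 4sU read pairs were unmapped, against 39.5% and 50.4% in total RNA. Rows other than genes took 9.0% and 8.25% of mapped 4sU pairs, against 0.27% and 0.37% in total RNA.

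Of the lists of genes by function, that of organizer and dorsal factors (the organizer list, 26 genes found) held 9 strongest gainers (cer1, frzb, pkdcc.2, otx2, pkdcc.1, lhx1, frzb2, pnhd, foxa4). The endoderm list held 9 of 18 and the mesoderm list 8 of 37, with mix1 and mixer on both. Animal ectoderm had 7 of 37, cell movement 7 of 39, BMP 6 of 26, Wnt 5 of 27, Notch 5 of 21 and the neural plate 3 of 31. Fgf and blood each had 1, flrt3 and aplnr, of 29 and 16. None stood on the lists of Nodal ligands and co-factors, retinoic acid, stress and immediate-early genes, histones, muscle or maternal germ plasm. Over all 8882 genes with 50 counts or more at stage 10+, 200 were strongest gainers. How many genes of each list had 50 counts there was not counted, so a list without a strongest gainer may hold few that could be chosen. Whether any list held more than its share was not tested.

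The poly(A) libraries held 27710453 to 45443446 exon counts at stage 9+ and 26586752 to 60984753 in the T-box experiment. Over the 197 genes, the median exon level in the DMSO controls was 53.1, 37.1 and 23.8 CPM in replicates 1, 2 and 3. In the control MO embryos it was 48.6 to 58.7 CPM at stage 10+, 109 to 124 at stage 11+ and 126 to 132.5 at stage 12+. Replicate 1 had the highest median of the DMSO, BMP LOF, Nodal LOF and Nodal/BMP LOF libraries but the lowest of all 4 groups with β-catenin MO, at 7.62 to 10.8 CPM against 14.6 to 27.1 in replicates 2 and 3. The part of this spread in the results was not tested beyond leaving out each replicate number in turn and fitting the number as a block.

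**Figure D1:**
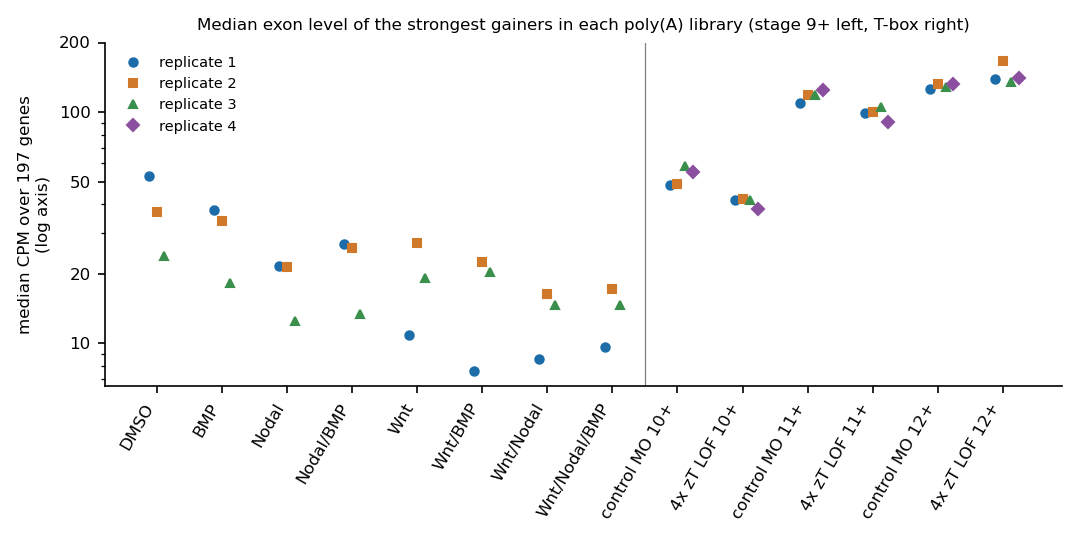
Median exon level (CPM, log axis) of the 197 measured strongest gainers in each of the 48 poly(A) libraries, 1 point per library, with replicate numbers by color and shape. The medians of the stage 9+ LOF libraries lie between 7.62 and 37.7 CPM, and the control MO medians go from 48.6 to 58.7 CPM at stage 10+ to 126 to 132.5 CPM at stage 12+.

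At stage 9+, the question was which of the 3 signals each gene required. A gene was called when edgeR's quasi-likelihood test gave a Benjamini-Hochberg adjusted p of 0.1 or less over all 16001 genes tested, and the 7 LOFs shared the same 3 DMSO libraries. Nodal LOF lowered 35 of 197 strongest gainers and raised 0, against 0.669% of all genes lowered and 0.0125% raised. Wnt LOF lowered 26 and raised 2 (0.887% and 0.262% of all genes). In BMP LOF 0 were called, as were 0% of all genes by edgeR, and DESeq2 called as many strongest gainers as edgeR. An unadjusted p under 0.05 was found for 11 of 197 in edgeR and 11 in DESeq2. Over all 16001 genes it was found for 217 in edgeR and 234 in DESeq2.

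Of the combined LOFs, Nodal/BMP LOF lowered 23 and raised 2 (0.506% and 0.0687% of all genes), Wnt/BMP LOF lowered 42 and raised 0 (1.43% and 0.312%), Wnt/Nodal LOF lowered 68 and raised 2 (2.1% and 0.287%), and the triple LOF lowered 76 and raised 0 (2.62% and 0.369%). The median log2 fold change over the 197 genes was −0.38, −0.75 and −0.50 for BMP, Nodal and Wnt LOF alone. For the double LOFs it was −0.60 (Nodal/BMP), −0.82 (Wnt/BMP) and −0.79 (Wnt/Nodal), and for the triple LOF −0.998, while over all genes it was between 0.00 and 0.01. Replicate 1 weighed on the LOFs with β-catenin MO: without it these medians were −0.12 (Wnt), −0.24 (Wnt/BMP), −0.35 (Wnt/Nodal) and −0.47 (triple), and without replicate 3 that of Wnt/BMP was −1.25. Differences between LOFs were not tested.

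The replicate number marked a shared frog, and fitting it as a block gave 65 calls for Nodal LOF (2.28% of all genes), 61 for Nodal/BMP LOF (2.82%), 56 for Wnt LOF (3.97%) and 76 for Wnt/BMP LOF (7.59%). DESeq2 called 59, 50 and 47 for the first 3 of these (1.42%, 1.36% and 1.92% of all genes). The edgeR calls without the block were 35 for Nodal, 25 for Nodal/BMP, 28 for Wnt and 42 for Wnt/BMP LOF. They were fewest without replicate 2, and for Nodal and Nodal/BMP LOF as few without replicate 3. The most calls with 1 number left out were 24, 20, 19 and 29 in that order. Replicates were left out only in this fit, not with the block or in DESeq2. Leaving out replicate 2 left 4 calls for Nodal, 4 for Nodal/BMP, 2 for Wnt, 1 for Wnt/BMP, 32 for Wnt/Nodal and 22 for triple LOF. Leaving out replicate 3 left 4 for Nodal, 4 for Nodal/BMP and 17 for Wnt LOF, and leaving out replicate 1 left 25 for Wnt/BMP LOF.

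**Figure D2:**
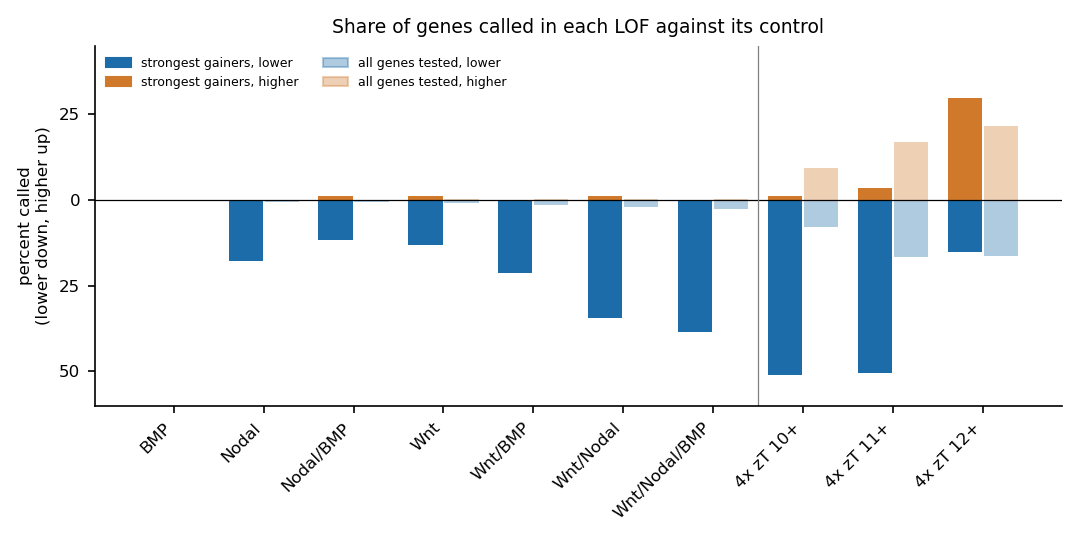
Percent of genes called lower (bars down) and higher (bars up) than the control in each LOF, for the strongest gainers (dark, 197 genes, or 196 for the T-box factors) and for all genes tested (light). Among the strongest gainers the lower calls prevail in 8 of the 10 LOF comparisons, BMP LOF has 0 calls, and 4x zT LOF at stage 12+ has 30 lower and 58 higher.

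Organizer genes were lowered by loss of either Nodal or Wnt. Nodal, Wnt and Wnt/BMP LOF each lowered 5 of the 9, Wnt/Nodal LOF 9 and triple LOF 8; of the 15 other organizer genes tested, 2, 9, 9, 11 and 10 were lowered. The level of cer1 was 70.3, 31.0 and 18.1 CPM in DMSO, 0.303, 0.809 and 0.0517 CPM in Nodal LOF and 0, 0.240 and 0.0502 CPM in Wnt LOF. Every LOF library thus lay far below every control. The log2 fold changes were −6.69 ± 1.08 (SE) in Nodal LOF (edgeR adjusted p = 0.0116) and −8.54 ± 1.21 in Wnt LOF (edgeR adjusted p = 0.00202). In Wnt/Nodal LOF and the triple LOF no library had a single cer1 count; 3 counts over the group would put it at least 1323-fold and 1743-fold lower than in DMSO.

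The head gene otx2, a homeobox factor, had 244, 170.0 and 134 CPM in DMSO, 5.83, 5.49 and 1.73 CPM in Nodal LOF and 1.1, 3.88 and 1.76 CPM in Wnt LOF. Control and LOF libraries did not overlap, with log2 fold changes of −5.39 ± 0.78 (edgeR adjusted p = 0.0024) and −6.32 ± 0.82 (edgeR adjusted p = 0.000246). In Wnt/Nodal LOF it was at 0.286, 0.170 and 0.203 CPM, or −9.67 ± 1.01 on the log2 scale (edgeR adjusted p = 1.76e-05). For pkdcc.2, which encodes a secreted kinase, DMSO had 49.6, 34.6 and 23.8 CPM, Nodal LOF 2.45, 3.18 and 1.34 CPM, and Wnt LOF 0.0969, 0.264 and 0.176 CPM. Its fall was −3.95 ± 0.52 in Nodal LOF (edgeR adjusted p = 0.0009) and −7.59 ± 0.64 in Wnt LOF (edgeR adjusted p = 2.24e-06), on the log2 scale.

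The Wnt antagonist frzb went from 348, 186 and 146 CPM in DMSO to 0.582, 17.7 and 7.76 CPM in Wnt LOF and to 0.0573, 0.284 and 0.0339 CPM in Wnt/Nodal LOF. All LOF libraries were below all controls; the log2 fold changes were −4.70 ± 1.15 (edgeR adjusted p = 0.0647) and −10.74 ± 1.66 (edgeR adjusted p = 0.000887). The related frzb2 had 1910 counts over the 3 DMSO libraries, 1 count each over the Wnt and Wnt/Nodal LOF libraries, 3 over the triple LOF and 0 over Wnt/BMP LOF, where it was at least 669-fold lower. Several of these calls were lost when 1 replicate number was left out. Without replicate 1, 2 or 3 cer1 lost its call in Nodal LOF (adjusted p of 0.155 to 0.345 in edgeR), and without replicate 2 in Wnt LOF (0.174). Likewise otx2 lost it in Nodal LOF without replicate 2 or 3 (up to 0.369) and in Wnt LOF without replicate 2 (0.156), frzb in Wnt LOF without replicate 2 or 3 (up to 0.758) and in Wnt/Nodal LOF without replicate 2 (0.146), and frzb2 in Wnt/BMP LOF without replicate 2 (0.234). The pkdcc.2 calls held without any 1 number.

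On the neural list, the homeobox gene irx3 had 48.2, 21.0 and 8.46 CPM in DMSO, 1.98, 3.93 and 1.42 CPM in Nodal LOF and 0.549, 2.32 and 0.854 CPM in Wnt LOF. Every library of both LOFs was below every control. It fell by 3.404 ± 0.79 in Nodal LOF (edgeR adjusted p = 0.0736) and by 4.37 ± 0.83 in Wnt LOF (edgeR adjusted p = 0.0123) on the log2 scale. The call was lost in Nodal LOF without any 1 number (adjusted p from 0.460 in edgeR) and in Wnt LOF without replicate 1 or 2 (up to 0.304).

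**Figure D3:**
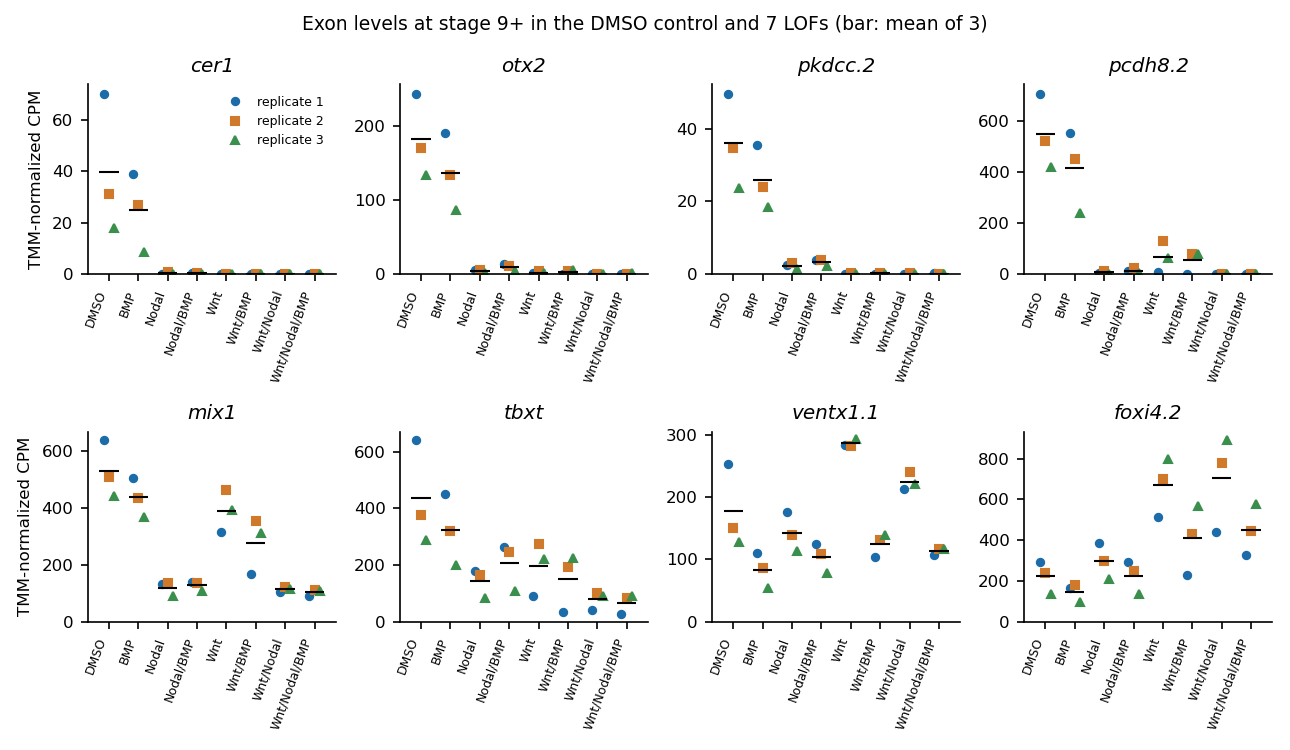
Exon levels (CPM after TMM scaling) of 8 strongest gainers at stage 9+ in DMSO embryos and 7 LOFs, 1 point per library, bar at the mean of 3. cer1, otx2, pkdcc.2 and pcdh8.2 lie near 0 in the Nodal and Wnt/Nodal LOFs, mix1 lies between 89.2 and 134 CPM in Nodal LOF but between 316 and 462 CPM in Wnt LOF, and foxi4.2 lies above all controls in Wnt LOF.

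Strongest gainers on the endoderm and mesoderm lists were called in Nodal LOF but not in Wnt LOF, a difference between LOFs that was not tested. Their median log2 fold changes were below 0 in both LOFs. These medians were −2.29 in Nodal LOF and −1.50 in Wnt LOF for endoderm, and −2.33 and −1.07 for mesoderm. Of 9 endoderm genes, Nodal LOF lowered 6, Wnt LOF 0, Wnt/BMP LOF 2, Wnt/Nodal LOF 7 and triple LOF 7, and of 8 mesoderm genes they lowered 4, 0, 3, 6 and 6. Of the other genes tested on these lists, they lowered 5, 1, 3, 5 and 5 of 8 for endoderm and 5, 3, 4, 10 and 7 of 22 for mesoderm. mix1, a homeobox factor of both layers, had 640.1, 508 and 442 CPM in DMSO, 131, 134 and 89.2 CPM in Nodal LOF and 316, 462 and 394 CPM in Wnt LOF. Nodal LOF libraries were all below the controls (log2 fold change −2.17 ± 0.24, edgeR adjusted p = 0.000199), while Wnt LOF libraries overlapped with them (−0.44 ± 0.23, edgeR adjusted p = 1). Its call in Nodal LOF held without any 1 replicate number.

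The related mixer had 622, 735 and 499 CPM in DMSO and 102, 163 and 66.4 CPM in Nodal LOF (log2 fold change −2.48 ± 0.54, edgeR adjusted p = 0.0484). The zinc finger factor gata4, which marks endoderm, had 381, 192 and 149 CPM in DMSO and 41.7, 39.3 and 22.2 CPM in Nodal LOF (−2.80 ± 0.60, edgeR adjusted p = 0.0432). Groups did not overlap for either gene. Without replicate 2 or 3 both calls were lost, with an edgeR adjusted p of up to 0.895 for mixer and 0.969 for gata4.

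tbxt, the pan-mesodermal Brachyury gene, had 640 (639.7), 378 and 288 CPM in DMSO, 179, 166 and 83.6 CPM in Nodal LOF and 90.3, 274 and 222 CPM in Wnt LOF. Although the libraries did not overlap with the controls, neither difference was called (log2 fold changes −1.61 ± 0.62, edgeR adjusted p = 0.803, and −1.16 ± 0.62, edgeR adjusted p = 1). In Wnt/Nodal LOF it was at 40.9, 102 and 91.3 CPM and fell by 2.48 ± 0.64 on the log2 scale (edgeR adjusted p = 0.0542), a call lost without replicate 2 or 3 (up to 0.691). The odd-skipped gene osr1 went from 12.6, 11.2 and 3.2 CPM to 0.401, 0.419 and 0.176 CPM in Nodal/BMP LOF, by −4.75 ± 1.03 (edgeR adjusted p = 0.0474; 0.163 to 0.707 without 1 number).

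Of 7 strongest gainers on the list for movement, adhesion and matrix, Nodal LOF lowered 5, Wnt LOF 1 and the triple LOF 7, and of the 26 others on that list 4, 1 and 4. pcdh8.2 had 705, 521 and 418 CPM in DMSO and 6.68, 12.9 and 2.9996 CPM in Nodal LOF, with no overlap (−6.19 ± 1.09, edgeR adjusted p = 0.0109). The membrane-bound ligand efnb2 went from 355, 266 and 239 CPM to 34.98, 49.7 and 23.2 CPM (−2.996 ± 0.55, edgeR adjusted p = 0.0159). Among genes on no list, plekhg5 went from 110 (110.5), 113 and 114 CPM to 3.08, 8.82 and 4.45 CPM (−4.37 ± 0.61, edgeR adjusted p = 0.00192), and slc12a3.2 from 219, 109 and 50.6 CPM to 1.98, 2.31 and 0.931 CPM (−6.18 ± 0.94, edgeR adjusted p = 0.0035). All 4 genes were below the controls in every Nodal LOF library. The calls of pcdh8.2, efnb2 and slc12a3.2 were lost without replicate 2 or 3 (edgeR adjusted p up to 0.521, 0.577 and 0.137) and that of plekhg5 without replicate 3 (0.335).

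BMP targets were not called in BMP LOF. The 6 BMP genes had a median log2 fold change of −0.70 in BMP LOF with 0 called, beside −0.30 for 17 others on the list. The ventral homeobox gene ventx1.1 had 254, 151 and 128 CPM in DMSO, 110.0, 86.8 and 53.7 CPM in BMP LOF and 284, 282 and 293 CPM in Wnt LOF. BMP LOF libraries were below and Wnt LOF libraries above all controls, but neither was called (−1.09 ± 0.25 and 0.69 ± 0.25 on the log2 scale, edgeR adjusted p = 1 and 0.45). With the block, the rise in Wnt LOF passed (edgeR adjusted p = 0.0907), as it did without replicate 1 (0.0766).

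The 2 genes called higher in Wnt LOF were also the 2 called higher in Wnt/Nodal LOF. id3, an inhibitor of helix-loop-helix factors and a BMP target, had 820 (819.5), 686 and 564 CPM in DMSO, 1115, 1220.0 and 1262 CPM in Wnt LOF and 1037, 1263 and 1313 CPM in Wnt/Nodal LOF. foxi4.2, a forkhead factor of the ectoderm, had 292, 238 and 136 CPM in DMSO, 512, 701 and 799 CPM in Wnt LOF and 439, 778 and 891 CPM in Wnt/Nodal LOF. Every LOF library of both was above every control. id3 rose by 0.80 ± 0.19 in each on the log2 scale (edgeR adjusted p = 0.0567 and 0.0294), and foxi4.2 by 1.59 ± 0.39 and 1.66 ± 0.39 (edgeR adjusted p = 0.0651 and 0.0278). All 4 calls were lost without replicate 2 or 3 (edgeR adjusted p up to 1).

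In Nodal/BMP LOF the 2 higher genes were alcam, an adhesion molecule, and nedd9, a scaffold of focal adhesions. alcam had 30.1, 20.3 and 16.9 CPM in DMSO and 49.5, 45.6 and 34.7 CPM in the LOF (0.95 ± 0.22, edgeR adjusted p = 0.0863). nedd9 had 29.1, 33.4 and 29.0 CPM in DMSO and 49.7, 50.8 and 42.8 CPM in the LOF (0.65 ± 0.12, edgeR adjusted p = 0.0136). Groups did not overlap, and the calls were lost without replicate 2 or 3 for alcam and without 1 or 2 for nedd9 (edgeR adjusted p up to 1 and 0.707).

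The caudal genes cdx4 and cdx2, which pattern the posterior body, were called lower in Wnt/BMP LOF. Neither was called in Wnt or BMP LOF alone, but whether the fall needs the loss of both signals was not tested. cdx4 had 35.03, 11.8 and 6.09 CPM in DMSO and 1.18, 3.22 and 3.98 CPM in Wnt/BMP LOF (−2.66 ± 0.67, edgeR adjusted p = 0.0578), and cdx2 17.1, 4.65 and 1.27 CPM and 0.359, 0.674 and 0.653 CPM (−3.77 ± 0.98, edgeR adjusted p = 0.0741). Replicate 1 was the highest control and the lowest LOF library of both. Without replicate 1 or 2 neither was called (edgeR adjusted p up to 0.796 for cdx4 and 0.845 for cdx2).

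After the stage at which the genes were chosen, they were followed in control MO embryos, in libraries the choice did not use. From stage 10+ to 11+, 158 of 196 rose and 10 fell, against 28.5% and 29.2% of all 17188 genes tested, with a median log2 fold change of 1.05. From stage 11+ to 12+, 80 rose (40.8%) and 68 fell (34.7%), near the 36.3% and 36% of all genes. Their median log2 fold change was 0.04 there, beside −0.03 over all genes. The keratin gene krt had 128, 164, 225 and 160.2 CPM at stage 10+ and 561, 710.1, 729 and 702 CPM at stage 11+ (2.00 ± 0.16 on the log2 scale, edgeR adjusted p = 1.33e-09). Every later library was above every earlier one.

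The largest rises to stage 11+ under the rule for named genes were those of cdx2, trim29, slc7a8 (an amino acid transporter) and tagln2 (transgelin 2, which binds actin). cdx2 went from 11.5, 22.8, 37.5 and 35.2 CPM to 157, 266, 263 and 311 CPM (3.22 ± 0.31, edgeR adjusted p = 2.16e-08). trim29 went on rising, from 4.78, 5.56, 3.62 and 8.73 CPM at stage 10+ to 44.7, 45.4, 42.9 and 56.1 CPM at stage 11+ and 384, 408, 323 and 389 CPM at stage 12+ (3.06 ± 0.27 and 2.99 ± 0.26, edgeR adjusted p = 6.67e-09 and 1.69e-09). The calcium-activated channel gene trpm5, plod1 (a collagen lysyl hydroxylase) and tn3 also rose to stage 12+, by 2.62 ± 0.25, 2.51 ± 0.30 and 2.93 ± 0.33 (edgeR adjusted p = 4.48e-09, 2e-07 and 7.98e-08).

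Of 9 strongest gainers on the endoderm list, 7 rose and 1 fell to stage 11+, and 3 rose and 5 fell to stage 12+. Of the 8 others tested on that list, 3 rose and 4 fell, then 2 rose and 4 fell. Of 8 strongest gainers on the mesoderm list, 5 rose and 1 fell, then 2 rose and 5 fell. The 27 others on the mesoderm list went differently: 19 rose and 2 fell, then 19 rose and 3 fell. mix1, on both lists, fell from 409, 410.3, 326 and 367 CPM at stage 10+ to 148, 189, 81.7 and 113 CPM at stage 11+ and 8.26, 10.9, 6.42 and 6.71 CPM at stage 12+ (−1.51 ± 0.22 and −4.05 ± 0.25, edgeR adjusted p = 5.18e-06 and 9.34e-12). cer1 rose first and then fell, with 29.8, 31.6, 40.4 and 42.3 CPM, then 138, 145, 142 and 154 CPM, then 19.9, 13.5, 13.1 and 9.71 CPM (2.01 ± 0.23 and −3.36 ± 0.25, edgeR adjusted p = 2.5e-07 and 1.15e-10). Stages did not overlap for either gene in these steps. mixer, cmtm8 and frzb fell to stage 12+ by 4.07 ± 0.39, 3.34 ± 0.25 and 2.37 ± 0.21 on the log2 scale (edgeR adjusted p = 5.82e-09, 1.81e-10 and 1.8e-09). plekhg5, cass4 and tfap2e fell already to stage 11+, by 1.11 ± 0.22, 0.81 ± 0.20 and 0.82 ± 0.19 (edgeR adjusted p = 0.000201, 0.00142 and 0.00112).

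The T-box experiment asked which genes depend on zygotic T-box factors. At stage 10+, 4x zT LOF lowered 100 of 196 strongest gainers and raised 2, against 8% and 9.37% of all genes. At stage 11+ it lowered 99 and raised 7 (16.8% and 16.8% of all genes), and at stage 12+ it lowered 30 and raised 58 (16.4% and 21.4%). The median log2 fold changes were −0.41, −0.35 and 0.07, against −0.02, −0.02 and 0.03 over all genes. Over the 3 stages in 1 fit, 100 were lowered and 14 raised (20.3% and 21.6% of all genes), and 104 differed in their response between stages (27.1% of all genes).

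With the replicate number as a block, 139 were lowered and 4 raised at stage 10+ (16.8% and 16.4% of all genes), 126 and 13 at stage 11+ (25.8% and 24.3%), 47 and 73 at stage 12+ (25.1% and 30.4%), and 108 and 22 over the stages (26.9% and 27.8%). Without the block, 102 genes were called at stage 10+ and 106 at stage 11+, and 104 differed between stages. Leaving out 1 replicate number in that fit moved these 3 counts by over 1.5 times. At stage 10+ there were 66 calls without replicate 3 and 55 without replicate 4. At stage 11+ there were 69 without replicate 4, and 58 genes differed between stages without replicate 4. No library was shared between stages, but the same replicate numbers recur at each stage. Of the genes lowered at stage 10+, 73 were also lowered at stage 11+, which is 73% of the first list and 73.7% of the second. Over all 196, 51.0% and 50.5% were lowered at these stages. Both earlier falls were followed by a higher call at stage 12+ for 13 genes, and 15 were lowered at all 3 stages. Over all 196, 29.6% were higher and 15.3% lower at stage 12+. Whether these overlaps differ from those shares was not tested.

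Summed over 15 maternal germ plasm transcripts, none of them at 0, the level at stage 12+ was 484 to 760.2 CPM in 4x zT LOF and 321 to 448 CPM in controls. Summed over 13 muscle genes it was 283 to 313 CPM against 583 to 826 CPM. Summed over 16 blood and vascular genes, the third list summed, the groups overlapped, at 275 to 319 CPM against 266 to 318 CPM. The germ plasm and muscle lists hold no strongest gainer, and the blood list holds aplnr. The part of these differences in the stage 12+ results was not tested.

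The largest falls in 4x zT LOF under the rule for named genes were at first in slc13a3 (a dicarboxylate transporter), tmprss9 (a membrane-anchored serine protease) and the caudal genes. At stage 10+, slc13a3 had 52.4, 40.1, 86.3 and 47.2 CPM in control MO embryos and 17.4, 13.8, 17.1 and 12.4 CPM in the LOF (−1.90 ± 0.23, edgeR adjusted p = 7.21e-06). tmprss9 had 18.4, 24.8, 36.5 and 33.01 CPM and 9.13, 6.61, 8.61 and 8.2 CPM at stage 10+ (−1.79 ± 0.24, edgeR adjusted p = 2.65e-05), and 42.6, 44.4, 40.8 and 30.2 CPM and 5.22, 9.77, 8.98 and 6.61 CPM at stage 12+ (−2.37 ± 0.25, edgeR adjusted p = 3.08e-07). No LOF library of either gene reached a control of its stage. At stage 9+, tmprss9 was called in 0 of the 7 LOFs.

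cdx4 had 12.7, 24.4, 36.7 and 38.2 CPM in controls and 8.33, 13.1, 12.6 and 11.4 CPM in the LOF at stage 10+ (−1.30 ± 0.26, edgeR adjusted p = 0.00158), with overlap only at control replicate 1. At stage 11+ the groups were apart, at 106, 182, 182 and 220.4 CPM against 66.7, 102, 105 and 80.0 CPM (−0.97 ± 0.26, edgeR adjusted p = 0.00677; 0.108 without replicate 4). At stage 12+ they overlapped throughout, at 371, 481, 430.1 and 522 CPM against 408, 514, 426 and 488 CPM. cdx2 fell by 1.52 ± 0.30 at stage 10+ (edgeR adjusted p = 0.00127).

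Falls that lasted or appeared late were seen in other genes. pcdh8.2 had 742, 908, 763 and 1022 CPM in controls and 375, 439, 312 and 444 CPM in the LOF at stage 12+, apart in every library (−1.13 ± 0.15, edgeR adjusted p = 4.24e-06). The Notch pathway repressor hes7.2 had 32.8, 50.5, 42.5 and 54.3 CPM and 13.1, 18.4, 13.1 and 21.2 CPM (−1.45 ± 0.17, edgeR adjusted p = 1.69e-06). pacsin1, plod1 and tn3 fell at stage 12+ by 2.40 ± 0.38, 1.83 ± 0.29 and 2.12 ± 0.32 on the log2 scale (edgeR adjusted p = 5.01e-05, 5.8e-05 and 2.81e-05). Of the 5 Notch genes, 4, 4 and 3 were lowered at the 3 stages and 0 raised; of the 16 others on the list, 2, 7 and 4 were lowered and 3, 1 and 4 raised.

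The organizer list followed the early pattern, with 7, 4 and 1 of 9 lowered at the 3 stages; of the 15 other organizer genes, 1, 3 and 4 were lowered and 4, 6 and 4 raised. cer1 had 29.8, 31.6, 40.4 and 42.3 CPM in controls and 26.1, 22.4, 17.0 and 18.4 CPM in the LOF at stage 10+, apart in all libraries (−0.78 ± 0.23, edgeR adjusted p = 0.0237; up to 0.202 without replicate 3 or 4). Its log2 fold change was −0.46 ± 0.22 at stage 11+ (edgeR adjusted p = 0.137; 0.0893 with the block; lowest 0.0613, without replicate 1) and 0.47 ± 0.23 at stage 12+ (edgeR adjusted p = 0.128; 0.00753 without replicate 1). irx3 fell by 1.01 ± 0.16 at stage 10+ (edgeR adjusted p = 0.000108), and slc12a3.2 by 1.15 ± 0.14 (edgeR adjusted p = 7.01e-06).

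Of the 6 BMP genes, stages 10+ and 11+ had 5 lowered each, and stage 12+ had 0 lowered and 4 raised. Of the 19 others on the list, 3, 9 and 1 were lowered and 2, 0 and 6 raised at the 3 stages. ventx1.1 had 96.4, 120.0, 125 and 136 CPM in controls and 58.6, 72.1, 76.4 and 76.6 CPM in the LOF at stage 10+, then 190.3, 258, 235 and 286 CPM against 111, 166, 146 and 132 CPM at stage 11+, and 145, 173, 155 and 159 CPM against 189.9, 228, 205 and 218 CPM at stage 12+. The LOF libraries were thus all below the controls at the first 2 stages and all above them at the third. The log2 fold changes were −0.75 ± 0.13, −0.81 ± 0.13 and 0.41 ± 0.13 (edgeR adjusted p = 0.000361, 7.69e-05 and 0.0191, the last 0.108 without replicate 3). The test of the stage by condition terms gave an edgeR adjusted p of 6.49e-05.

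Of the 9 endoderm genes, 5 were lowered at stage 10+ and 4 at stage 11+, and 4 were raised at stage 12+; of the 8 others on the list, 2, 2 and 0 were lowered and 2, 3 and 5 raised. sebox, a homeobox gene, had 38.4, 48.7, 67.7 and 55.2 CPM in controls and 32.2, 34.0, 40.6 and 23.2 CPM in the LOF at stage 10+ (−0.69 ± 0.17, edgeR adjusted p = 0.00853; 0.138 without replicate 4). At stage 12+ it had 17.1, 19.0, 11.4 and 14.8 CPM in controls and 48.9, 52.4, 50.7 and 60.9 CPM in the LOF (1.77 ± 0.18, edgeR adjusted p = 1.47e-07). The groups overlapped at the first and were apart at the last stage. gata4 fell by 0.42 ± 0.10 at stage 10+ and rose by 0.53 ± 0.10 at stage 12+ (edgeR adjusted p = 0.00593 and 0.000324; the first 0.119 without replicate 4), and mix1 and mixer rose by 0.96 ± 0.23 and 1.48 ± 0.35 at stage 12+ (edgeR adjusted p = 0.00312 and 0.00285), where replicate 1 of mixer overlapped with the controls.

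Rises at stage 11+ were few. osr1 had 13.3, 12.9, 12.1 and 10.4 CPM in controls and 16.5, 22.6, 17.9 and 16.5 CPM in the LOF (0.59 ± 0.15, edgeR adjusted p = 0.0044), and skil, which encodes the Smad repressor SnoN, 42.2, 43.7, 40.2 and 42.2 CPM and 52.0, 51.3, 54.7 and 49.5 CPM (0.30 ± 0.09, edgeR adjusted p = 0.0147). Groups were apart for both. adc rose by 1.25 ± 0.31 and then by 2.00 ± 0.33 at stage 12+ (edgeR adjusted p = 0.00463 and 6.88e-05), and s1pr5 by 0.42 ± 0.11 at stage 11+ with overlap of the groups (edgeR adjusted p = 0.00864). At stage 12+, angpt4 (an angiopoietin) rose by 1.71 ± 0.47, with 1 control library above 1 LOF library, and foxi4.2 by 0.95 ± 0.08 (edgeR adjusted p = 0.00847 and 6.07e-09).

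**Figure D4:**
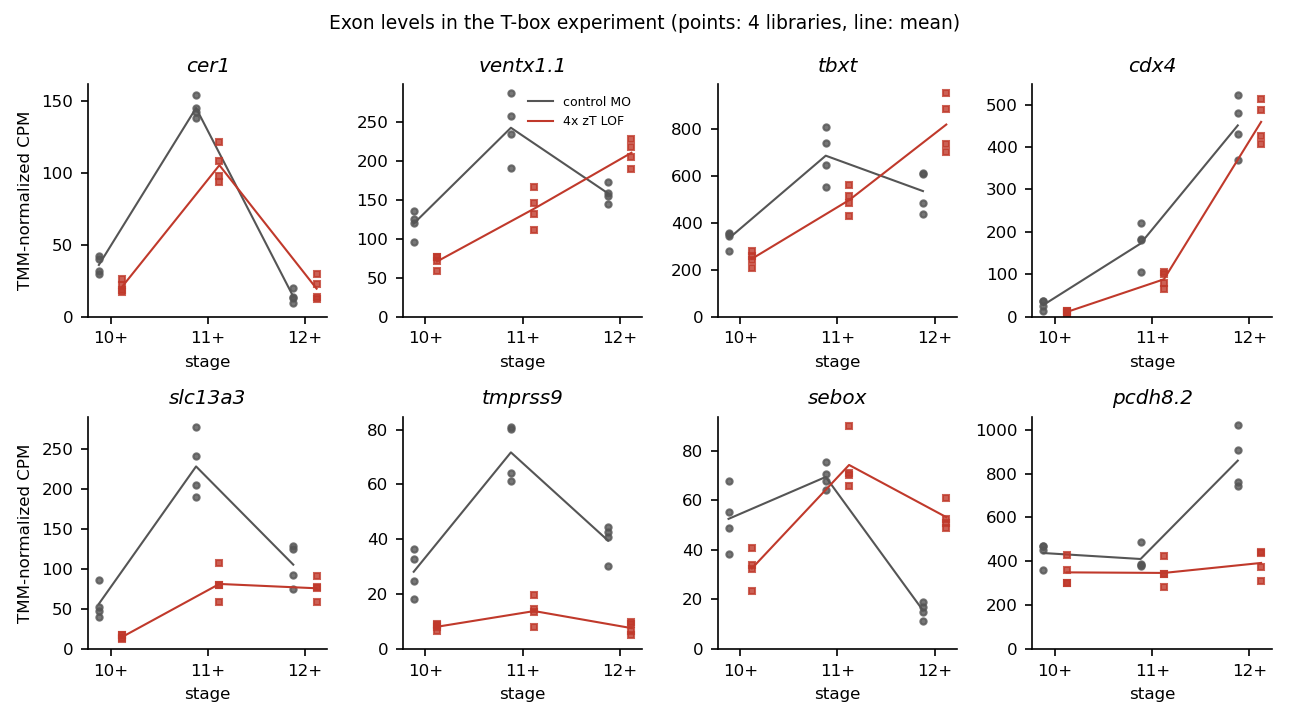
Exon levels (CPM after TMM scaling) of 8 strongest gainers at stages 10+, 11+ and 12+ in control MO (gray) and 4x zT LOF (red) embryos, 1 point per library, line through the mean of 4. ventx1.1 and tbxt lie below the control at stage 11+ and above it at stage 12+, tmprss9 stays below 20 CPM in the LOF, and cdx4 reaches 408 to 514 CPM in the LOF at stage 12+, within the range of the controls.

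tbxt is both a strongest gainer and a target of the LOF: of the 4 Xbra MOs, 1 blocks its splicing and 1 its translation, and the others act on tbxt.2. Its exon level was 278, 356, 350.5 and 344 CPM in controls and 258, 281, 240.2 and 207 CPM in the LOF at stage 10+ (−0.43 ± 0.13, edgeR adjusted p = 0.0364), and at stage 11+ it fell by 0.47 ± 0.13 on the log2 scale (edgeR adjusted p = 0.012). Controls and LOF overlapped in a single control library at each of these stages. At stage 12+ all LOF libraries, at 735, 950.1, 701 and 882 CPM, were above the controls, at 439, 610.1, 483 and 606 CPM (0.61 ± 0.13, edgeR adjusted p = 0.00134). Its intron counts rose by 1.75 and 2.21 at stages 10+ and 11+ (edgeR adjusted p = 1.64e-06 and 2.15e-08), so exons and introns of this gene moved in opposite directions. The exon calls were lost at stage 10+ without replicate 3 or 4 (up to 0.232) and at stage 11+ without replicate 4 (0.179).

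Intron counts, which come mostly from unspliced RNA, gave other directions in the T-box experiment for further strongest gainers. Of 178 genes tested, introns were lower in 29 and higher in 18 at stage 10+ (5.92% and 5.37% of all genes), lower in 20 and higher in 44 at stage 11+ (10.9% and 10.7%), and lower in 17 and higher in 89 at stage 12+ (15% and 15.6%). Of 177 genes tested on both, 7, 15 and 1 were lower in exons but higher in introns at the 3 stages, and 0 were the opposite. The share over all genes was not counted, so whether this is particular to the strongest gainers was not tested. The 7 and the 15 include tbxt, the target of a splice-blocking MO. The intron response differed between stages for 56 of 178 genes (7.44% of all genes). ventx1.2, a relative of ventx1.1, was one of the 15: its exon level fell by 0.42 ± 0.11 at stage 11+ (edgeR adjusted p = 0.00834), and its introns rose by 0.74 on the log2 scale (edgeR adjusted p = 0.000331). gata4 was one of the 7, with an intron rise of 0.55 (edgeR adjusted p = 0.0752).

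In control MO embryos, 49 of 178 genes were lower and 53 higher in introns from stage 10+ to 11+ (20.3% and 21.6% of all genes), and 129 were lower and 16 higher from stage 11+ to 12+ (29.1% and 30.4%). Exons rose while introns fell in 28 and 33 genes of these steps, and 0 were the opposite. How often this occurred over all genes was not counted, so it cannot be read as a trait of the strongest gainers. The intron medians were −0.07 and −1.12 on the log2 scale beside exon medians of 1.05 and 0.04. At stage 9+, 175 genes were tested on introns. BMP LOF gave 0 calls, Nodal LOF lowered 44 and raised 0 (1.92% and 0.087% of all genes), Nodal/BMP LOF lowered 52 and raised 3 (2% and 0.235%), and Wnt LOF lowered 24 and raised 1 (0.974% and 0.174%). Wnt/BMP LOF lowered 48 and raised 1 (2.37% and 0.217%), Wnt/Nodal LOF 61 and 3 (3.04% and 0.339%), and the triple LOF 77 and 3 (3.88% and 0.478%). In each LOF, 0 genes were called in opposite directions on exons and introns, and the share over all genes was not counted.

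**Figure D5:**
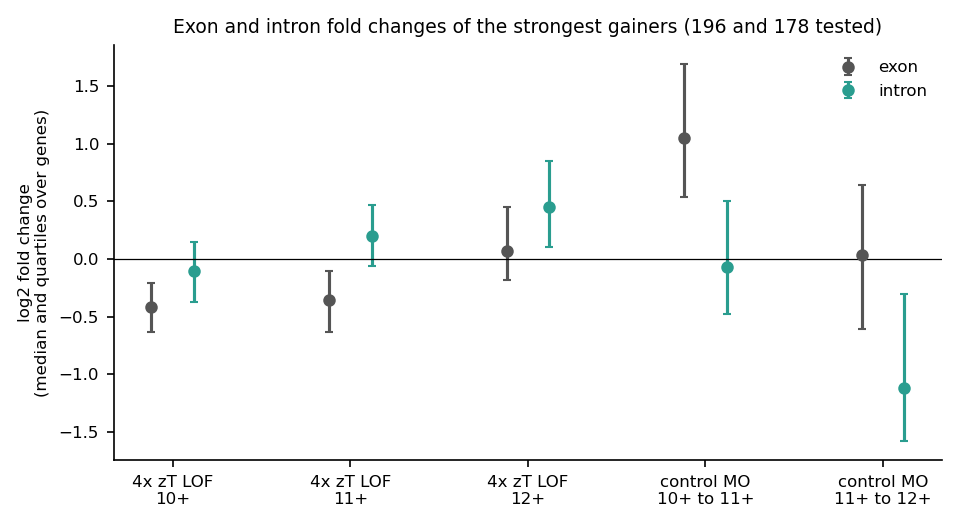
Median (point) and quartiles (bars) of the log2 fold change over the strongest gainers in exons (gray, 196 genes) and introns (green, 178 genes), for 4x zT LOF against control MO at 3 stages and for 2 steps in control MO embryos. Exon medians of −0.41, −0.35 and 0.07 stand beside intron medians of −0.10, 0.20 and 0.45 in the LOF, and intron medians of −0.07 and −1.12 beside exon medians of 1.05 and 0.04 in the controls.

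The 2 poly(A) experiments share no library, so their calls could be set side by side. Of the 35 genes lowered in Nodal LOF, 18 were among the 100 lowered in 4x zT LOF at stage 10+, which is 51.4% of the first list and 18% of the second; over all strongest gainers tested, 51.0% were lowered there. Of the 76 genes lowered in the triple LOF, 42 were among those 100, or 55.3% and 42%, beside the same 51.0%. For Wnt LOF it was 18 of 26 (69.2%) and for Wnt/BMP LOF 30 of 42 (71.4%). For Nodal/BMP LOF it was 12 of 23 (52.2%) and for Wnt/Nodal LOF 39 of 68 (57.4%). Among the 68 genes that fell from stage 11+ to 12+ in control embryos, 35 were lowered in the triple LOF at stage 9+ (51.5% of the 68 and 46.1% of the 76), and so were 7 of the 10 that fell from stage 10+ to 11+ (70% of the 10 and 9.21% of the 76). Over all strongest gainers, the triple LOF lowered 38.6%. Whether these overlaps differ from those shares was not tested.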

How the data were processed

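The authors deposited raw counts. For the 4sU experiment they aligned read pairs of rRNA-depleted RNA to v7.1 transcripts with Bowtie2 and counted uniquely aligned pairs. For the poly(A) libraries they aligned reads to the v7.1 genome with STAR (2.5.3a) and counted exons and introns without strand. Reads of overlapping or antisense genes thus cannot be told apart. How well reads of related genes (such as ventx, mix, krt and pkdcc genes) were told apart was not checked.

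Here, exon counts were tested with edgeR (4.0.16, R 4.3.3), using TMM factors, filterByExpr, glmQLFit and glmQLFTest, with 8 condition terms at stage 9+, 1 term per group in the T-box experiment, and stage + condition or stage * condition across stages. Adjusted p-values are Benjamini-Hochberg over all genes tested and a call needs 0.1 or less. SE is the log2 fold change over the root of F. DESeq2 (1.42.0), its size factors, no filter, intron counts, a replicate block, each replicate number left out, and a rule minimum of 100 counts or pseudocount of 5 CPM were the alternatives. Levels are CPM after TMM scaling.

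Replicate numbers paired the libraries, as deposited names give 1 frog per number. Deviations from group means correlated at 0.525 to 0.827 (stage 9+) and 0.543 to 0.831 (T-box) within a number. Between numbers the correlations were −0.582 to −0.189 and −0.432 to 0.111. These deviations sum to 0 in each group, so high values within a number pull those between numbers down. The ranges between numbers are thus no separate support for the pairing. Fits without the block leave this pairing unused. Their p-values set each difference against a spread that mixes these clutches with the libraries. No 2 libraries agreed within counting noise. The tests were checked on simulated counts that had no effect of the frog, so that check does not cover the spread between clutches.

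Named genes were the 12 with a symbol and the highest ratio, the 4 largest falls and 4 largest rises of each comparison among called members with a mean of 50 normalized counts and 1 direction in every replicate number, up to 4 members of each list, and the 3 genes on either side of the limit; 1 gene that this rule takes is not reported here. Members and lists were chosen with earlier results of these data known. The 4sU table's columns were all used. RefSeq names come from assembly UCB_Xtro_10.0, and no genome sequence was used here.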

Additional observations from a re-analysis of the deposited data

Results flagged for a closer look

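In groups of 4 libraries, 20 of 222 sets of values had 1 library far from the other 3; chance alone gives about 1 in 20. pacsin1 was highest in replicate 1 in control MO embryos at stages 10+, 11+ and 12+ (10.9, 22.8 and 16.6 CPM) and in 4x zT LOF at stages 10+ and 11+ (7.99 and 6.61 CPM). gata4 was lowest in replicate 4 in 4x zT LOF at stages 10+ and 11+ (200.2 and 340 CPM) and in replicate 1 at stage 12+ (157 CPM). aplnr, the apelin receptor gene, was highest in replicate 2 in 4x zT LOF at stages 10+ and 11+ (82.1 and 133 CPM). In 4x zT LOF, mixer was also low in replicate 1 at stage 10+ (226 CPM), irx3 low in replicate 4 and angpt4 high in replicate 2 at stage 11+ (32.8 and 131 CPM), and cass4 low in replicate 1 at stage 12+ (141 CPM). In control MO embryos at stage 10+, tbxt was low in replicate 1 (278 CPM) and pcdh8.2 low in replicate 3 (362 CPM). At stage 11+, pcdh8.2 was high in replicate 2 (489.6 CPM), trpm5 high in replicate 3 (80.2 CPM) and krt low in replicate 1 (561 CPM). The median over the strongest gainers was lowest in replicate 4 of 4x zT LOF at stage 10+ (38.01 CPM).

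The response to 4x zT LOF differed between stages in edgeR's joint test of the stage by condition terms for 53.1% of the strongest gainers and 27.1% of all genes. Among 25 genes with T-box values in the report, many of them taken because they were called at 1 of these stages, it differed for 21. The adjusted p was 2.63e-07 for foxi4.2, 2.03e-06 for sebox, 3.63e-05 for ventx1.2, 6.49e-05 for ventx1.1, 6.93e-05 for hes7.2, 0.000152 for gata4 and 0.000291 for tbxt. It was 0.00121 for slc12a3.2, 0.00127 for skil, 0.00456 for pcdh8.2, 0.00622 for slc13a3 and 0.00881 for mixer. For tn3 it was 0.0104, for cer1 0.0165, for cdx4 0.0237, for cdx2 0.0300, for osr1 0.0336, for s1pr5 0.0517, for pacsin1 0.0537, for adc 0.0750 and for mix1 0.0816. Leaving out 1 replicate number lost 9 of these calls, with an adjusted p of up to 0.129 for mixer, 0.377 for cer1, 0.206 for cdx4, 0.219 for cdx2, 0.227 for osr1, 0.273 for s1pr5, 0.191 for pacsin1, 0.431 for adc and 0.522 for mix1 in edgeR. Replicate 4 was among the numbers whose absence lost each of the 9.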

How the results depend on the processing

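Of the alternative values for the counts of strongest gainers called and the 4sU medians, 124 stayed near the main value (for counts, within 1.5 times) and 27 did not. With the replicate block, 65 were called in Nodal LOF, 61 in Nodal/BMP LOF, 56 in Wnt LOF and 76 in Wnt/BMP LOF, and with DESeq2 59, 50 and 47 in the first 3. Intron counts called 55 in Nodal/BMP LOF, 47 and 64 in 4x zT LOF at stages 10+ and 11+, 102 from stage 10+ to 11+ in controls, and 56 for the difference between stages. The median 4sU enrichment at stage 10+ was 5.16 with total counts in place of size factors. Without 1 replicate number, the calls were 0 to 0 in BMP LOF, 4 to 24 in Nodal LOF, 4 to 20 in Nodal/BMP LOF, 2 to 19 with Wnt, 1 to 29 with Wnt/BMP, 32 to 57 with Wnt/Nodal and 22 to 61 in the triple LOF. They were 55 to 111, 69 to 102 and 69 to 83 in 4x zT LOF at the 3 stages, 86 to 105 over stages, 160 to 170 and 134 to 142 for the steps in controls, and 58 to 96 for the difference between stages. Intron counts reversed the exon direction in 4x zT LOF for ventx1.2 (0.32 at stage 10+, 0.74 at stage 11+), gata4 (0.55 at stage 10+) and tbxt (1.75 and 2.21), on the log2 scale. The cause was not tested. The 2 libraries that chose the genes have no replicate; with a minimum of 100 counts 146 of the 200 remained, and with a pseudocount of 5 CPM 166. With the block, pcdh8.2 in Wnt LOF and slc13a3 in 4x zT LOF at stage 12+ also passed, as did the stage difference of plod1 and angpt4, besides the calls named above; it changed no other call printed here for a single gene. Few counts limit cer1 and frzb2 in the LOFs.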
